A study of Mus musculus with 4 samples.

Results

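The Dlk1-Dio3 imprinted locus transcripts were examined in mouse embryonic stem cells without Suz12 and in wild-type cells. The members were all probe sets whose platform gene symbol is Meg3, Rian, Mirg, Dlk1, Rtl1 or Dio3. They were 19 of 45101 probe sets on the array, for 4 of the 19324 genes that the platform annotation names: 11 for Meg3, 4 for Rian, 2 for Mirg and 2 for Dlk1. Each of the 19 lists a single gene symbol. Rtl1 and Dio3 had 0 named probe sets and were not analysed here. The 2 groups were Suz12KO cells and WT cells, with 2 expression arrays each, and the labels give no further allele, treatment, passage or sex for either group. For each genotype, RNA from 3 clones was mixed in equal amounts, so values describe a pool. It is not stated if both arrays of a genotype were made from the same pool, and p-values therefore measure the spread between these arrays, which may be technical.

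The locus lies on the distal part of mouse chromosome 12 and is imprinted: a gene is read mainly from the copy of one parent. Dlk1, Rtl1 and Dio3 are protein-coding genes expressed from the paternal copy, and Meg3, Rian and Mirg are long noncoding RNAs expressed from the maternal copy. The choice is set by a region between Dlk1 and Meg3 that carries DNA methylation on the paternal copy, and in mouse stem cell lines loss of Meg3 expression is a known sign of a disturbed imprint. Suz12 belongs to the core of Polycomb repressive complex 2 (PRC2), the enzyme complex that places the repressive methyl mark on histone H3. PRC2 has been reported to bind Meg3 RNA in mouse embryonic stem cells.

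Some probe sets of Meg3 (4 of 11) and Rian (2 of 4) were called lower in Suz12KO cells and none higher, with limits given below. Among all tested probe sets 3.15% were called lower and 2.43% higher. A start of Meg3 and of Rian is therefore shown here, with that of the adjacent paternally expressed Dlk1. Each sequence is taken from RefSeq on GRCm38.p6, plus strand, and runs from 250 bases before to 50 bases after an annotated start. The Meg3 window is chr12:109540746-109541045, the Rian window chr12:109603695-109603994 and the Dlk1 window chr12:109452573-109452872. Capitals mark matches, on either strand, to TGCCGC (the core bound by the imprint-protecting factor Zfp57), TGACGTCA (the cAMP response element) or TATAAA (the TATA element).
Meg3: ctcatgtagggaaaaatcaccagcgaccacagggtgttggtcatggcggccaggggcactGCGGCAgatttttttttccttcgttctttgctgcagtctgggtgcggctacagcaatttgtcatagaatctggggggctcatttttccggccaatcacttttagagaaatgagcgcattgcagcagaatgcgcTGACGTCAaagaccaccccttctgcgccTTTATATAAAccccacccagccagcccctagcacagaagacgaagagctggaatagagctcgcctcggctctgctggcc
Rian: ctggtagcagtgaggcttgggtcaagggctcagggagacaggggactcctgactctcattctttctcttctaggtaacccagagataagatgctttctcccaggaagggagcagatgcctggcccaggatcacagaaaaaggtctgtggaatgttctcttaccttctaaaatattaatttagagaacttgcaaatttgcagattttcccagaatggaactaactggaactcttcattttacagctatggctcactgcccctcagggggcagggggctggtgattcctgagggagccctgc
Dlk1: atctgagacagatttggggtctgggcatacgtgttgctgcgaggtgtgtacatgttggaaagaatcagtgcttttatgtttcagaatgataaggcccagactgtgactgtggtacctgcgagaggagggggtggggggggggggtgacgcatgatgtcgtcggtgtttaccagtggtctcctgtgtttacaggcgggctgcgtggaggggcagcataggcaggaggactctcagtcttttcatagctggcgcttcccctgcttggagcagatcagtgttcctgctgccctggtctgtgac
The Meg3 window shown held 1 TGCCGC match, on the minus strand, 1 TGACGTCA match and 2 TATAAA matches, which overlap each other on opposite strands. Of 32851 promoter windows of the same length, 11.6% held TGCCGC, 1.79% TGACGTCA and 13.6% TATAAA. A second annotated Meg3 start, whose window is chr12:109545148-109545447 and is not printed, had 1 CG dinucleotide and 0 matches to all 3 motifs. The Rian and Dlk1 windows held 0 matches to any of these letters. The Meg3 window shown had 13 CG dinucleotides and the Dlk1 window 9, against a median of 7 over all windows, while the Rian window had 0. These matches describe the letters in the windows, and binding of a factor was not measured.

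The noncoding RNAs also carry small RNAs. Between Dlk1 and Dio3 the RefSeq tables place 58 miRNA hairpins, 54 of them on the strand of Meg3, and 19 small nucleolar RNA genes. The span of Rian holds 3 hairpins and 11 small nucleolar RNA genes, that of Mirg 10 hairpins, and that of Meg3 1 hairpin. The mature miRNAs inside Meg3 and Rian, the transcripts with probe sets that fell, are shown with the seed (bases 2 to 8) in capitals. The miR-770 and miR-1906 sequences lie within Meg3 and the others within Rian.
mmu-miR-770-5p: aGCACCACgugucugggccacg
mmu-miR-770-3p: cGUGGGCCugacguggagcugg
mmu-miR-1906: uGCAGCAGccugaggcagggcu
mmu-miR-341-5p: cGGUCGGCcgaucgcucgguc
mmu-miR-341-3p: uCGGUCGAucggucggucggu
mmu-miR-1188-5p: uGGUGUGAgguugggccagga
mmu-miR-1188-3p: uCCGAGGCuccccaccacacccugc
mmu-miR-370-5p: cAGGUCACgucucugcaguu
mmu-miR-370-3p: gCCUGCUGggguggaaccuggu
None of these 9 shares its seed with another of the 9. The seed of miR-370-5p also occurs in miR-1193-3p, whose hairpin lies between Rian and Mirg. Mature miRNAs were not analysed here, and the signals below belong to the long transcripts.

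Values are probe set signals, an intensity on a linear scale that was set to the same trimmed mean (500.003) on every array. A change is the limma log2 fold change of log2(signal + 16), Suz12KO minus WT, with Benjamini-Hochberg adjustment over 31526 probe sets and calls at an adjusted p under 0.05. The added 16 makes the change of dim probe sets look smaller than it is. Precision is limited by having 2 arrays a genotype. The brightest of the probe sets for bacterial spike RNA, none of which was bright on any array, reached 174 to 195 on the Suz12KO arrays and 141 to 191 on the WT arrays. Signal at or under the highest spike of its own array is called within background here. Suz12 fell, with signals of 217 and 369 in Suz12KO against 1097 and 1094 in WT at its brightest probe set (log2 fold change -1.89, SE 0.27, limma adjusted p = 0.0028). Median signals were 191 to 202 on the Suz12KO arrays and 171 to 175 on the WT arrays, and the 3' to 5' signal ratio of Gapdh, a sign of RNA integrity, was 0.871 to 0.889 in Suz12KO and 0.756 to 0.807 in WT. The same ratio of Actb was 1.137 to 1.141 in Suz12KO and 1.146 to 1.157 in WT, the other way, and that of Tfrc was 2.43 to 2.84 in Suz12KO and 2.47 to 2.55 in WT, with overlap. The part of these differences in the changes below was not tested.

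Of the 19 locus probe sets, all of which passed the filter on dim signal, 6 fell in Suz12KO and 0 rose by limma. They were 4 of 11 for Meg3 and 2 of 4 for Rian, and 0 of 2 each for Mirg and Dlk1. Among all tested probe sets 3.15% were called lower, 2.43% higher and 5.58% either way. At an unadjusted p under 0.05, 9 locus probe sets were lower and 0 higher. The median log2 fold change of the 19 was -0.62, against 0.05 for all tested probe sets. In 13 of the 19 both Suz12KO arrays lay below both WT arrays, an order seen in 21.4% of all tested probe sets. In 3 both Suz12KO arrays lay above both WT arrays (26.8% of all), and in the other 3 the genotypes overlapped. Probe sets of a gene share its transcripts and are not separate replicates. Without a mean-variance trend limma called 0 of the 19 and 0 probe sets in all (smallest adjusted p = 0.215, with 8 of the 19 at an unadjusted p under 0.05), so every call below rests on that model.

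**Figure D1:**
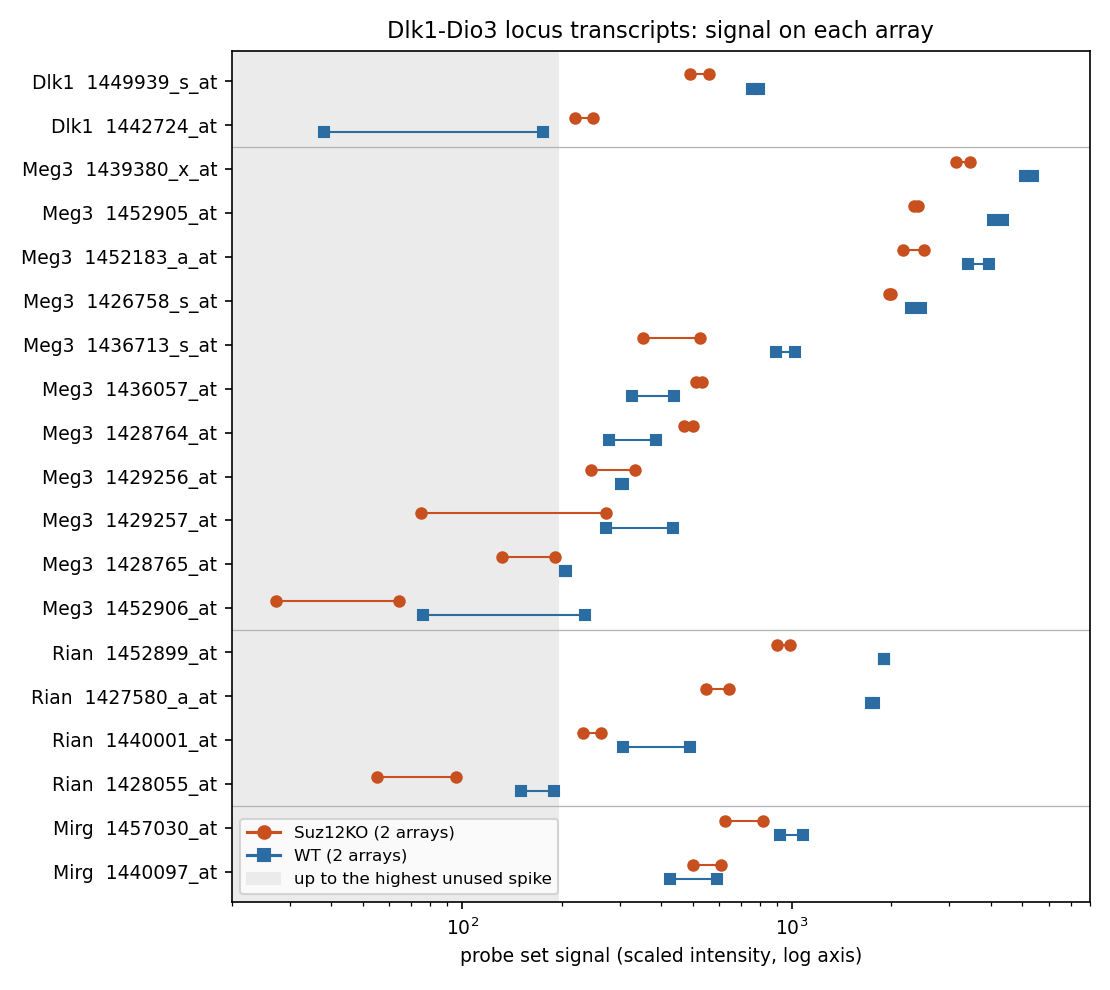
Signal of each of the 19 probe sets on each array (log axis, scaled intensity), with Suz12KO as circles above WT as squares and a line joining the 2 arrays of a genotype. The grey area ends at 195, the highest bacterial spike of any array, and the pairs of the 6 probe sets that fell, 4 for Meg3 and 2 for Rian, lie to its right with Suz12KO left of WT.

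Meg3, the maternally expressed RNA nearest to the imprinting control region, was 1.57-fold to 2.17-fold lower, on the scale with 16 added, at its 4 called probe sets. Its brightest probe set, 1439380_x_at, read 3474 and 3136 in Suz12KO, against 5376 and 5092 in WT. The suffix x marks probes that can also bind unrelated transcripts, so this probe set alone does not identify Meg3. The groups did not overlap, and the log2 fold change was -0.66 (SE 0.09, limma adjusted p = 0.0018).

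Probe set 1452905_at, without such a suffix, read 2337 and 2418 in Suz12KO, against 4076 and 4376 in WT. Both Suz12KO arrays were low and close together, and the log2 fold change was -0.82 (SE 0.09, limma adjusted p = 0.00060). For 1452183_a_at, whose suffix marks probes shared by transcripts of the same gene, the signals were 2177 and 2511 in Suz12KO, against 3964 and 3408 in WT. Again the groups did not overlap, with a log2 fold change of -0.65 (SE 0.11, limma adjusted p = 0.0085).

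The fourth, 1436713_s_at, was dimmer and had the largest change of the 4 called for Meg3. Whether its probes, marked s, also bind transcripts of other genes was not determined here. The same holds for 1426758_s_at of Meg3 and 1449939_s_at of Dlk1. It also holds for the probe sets marked s by which Suz12, Dnmt3l and Gnas were read. Probe set 1436713_s_at read 526 and 353 in Suz12KO, against 893 and 1018 in WT. The log2 fold change was -1.12 (SE 0.23, limma adjusted p = 0.0221), and the Suz12KO arrays differed from each other more than the WT arrays did. Its call was lost without WT replicate 2 (-1.02, limma adjusted p = 0.108) and without Suz12KO replicate 2 (-0.84, adjusted p = 0.0589).

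The other 7 Meg3 probe sets did not pass. Probe set 1426758_s_at was among the bright ones, with 1992 and 1965 in Suz12KO, against 2466 and 2294 in WT. Its groups did not overlap, and at -0.26 on the log2 scale it missed the threshold (limma adjusted p = 0.212, unadjusted 95% interval -0.50 to -0.03). It was designed from the same source sequence as 1452183_a_at, which was called. Another, 1429257_at, read 273 and 75.1 in Suz12KO, against 437 and 272 in WT, and its log2 fold change of -1.15 (limma adjusted p = 0.338) was -0.32 without Suz12KO replicate 2.

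A pair of Meg3 probe sets lay the other way. Probe set 1428764_at read 469 and 502 in Suz12KO, against 386 and 279 in WT (log2 fold change 0.54, limma adjusted p = 0.368, 95% interval -0.10 to 1.19). Probe set 1436057_at read 512 and 535 in Suz12KO, against 439 and 328 in WT (0.45, limma adjusted p = 0.426, 95% interval -0.15 to 1.04). Both Suz12KO arrays were above both WT arrays in each, and neither passed. The first of the pair shares its source sequence with 1452905_at, which was called lower. Which exons or isoforms each probe set reads was not determined here, and the difference between probe sets was not tested.

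The remaining 3 Meg3 probe sets were dim. Probe set 1429256_at read 334 and 246 in Suz12KO, against 306 and 304 in WT, and the groups overlapped (log2 fold change -0.08). Probe set 1428765_at read 191 and 132 in Suz12KO, within background, against 206 and 205 in WT. The lower bound of the fold was 1.11, as WT signal over the highest spike of each Suz12KO array. A fall was not established, as this probe set did not pass (limma adjusted p = 0.777). Its unadjusted 95% interval on the log2 scale was -1.44 to 0.76. Probe set 1452906_at read 64.2 and 27.2 in Suz12KO, within background, against 75.9 and 235 in WT, of which 1 array was above background, so no fold is given.

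Rian, also called Meg8, lies downstream of Meg3 and is the host of C/D-box small nucleolar RNAs. Its probe set 1427580_a_at had the largest called fall of the locus, and read 548 and 646 in Suz12KO, against 1768 and 1735 in WT. That is a log2 fold change of -1.53 (SE 0.16, limma adjusted p = 0.00038), or 2.89-fold lower on the scale with 16 added. Probe set 1452899_at read 985 and 900 in Suz12KO, against 1899 and 1898 in WT. The WT arrays were nearly the same and both Suz12KO arrays well below them, with a log2 fold change of -1.0 (SE 0.13, limma adjusted p = 0.0017).

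Both other Rian probe sets also had Suz12KO below WT on every array, without passing. Probe set 1440001_at read 233 and 263 in Suz12KO, against 490 and 307 in WT (log2 fold change -0.62, limma adjusted p = 0.415). Here the WT arrays were far apart, and 1 of them was close to the Suz12KO arrays. Probe set 1428055_at read 55.0 and 95.5 in Suz12KO, within background, against 190 and 150 in WT, of which 1 array was above background (limma adjusted p = 0.467). It gives no fold. The called Rian probe sets had larger falls than those of the bright Meg3 probe sets, a difference that was not tested.

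Mirg, the miRNA-containing RNA at the far end of the maternal transcripts, was not called. Probe set 1457030_at read 815 and 628 in Suz12KO, against 1081 and 919 in WT. The groups did not overlap, and the log2 fold change was -0.47 (SE 0.19, limma adjusted p = 0.229, unadjusted 95% interval -0.90 to -0.04). Probe set 1440097_at read 607 and 501 in Suz12KO, against 426 and 591 in WT. These groups overlapped, and the log2 fold change of 0.13 (limma adjusted p = 0.839) was -0.04 after centring each array on its median. The unadjusted 95% interval of this probe set was -0.43 to 0.70.

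Dlk1, a transmembrane protein of the Delta family that acts as a noncanonical Notch ligand, was the paternally expressed gene that could be read. Probe set 1449939_s_at read 560 and 491 in Suz12KO, against 758 and 797 in WT. The groups did not overlap, but its log2 fold change of -0.55 (SE 0.20, limma adjusted p = 0.168, unadjusted 95% interval -1.0 to -0.11) did not pass. Probe set 1442724_at read 220 and 248 in Suz12KO, against 176 and 38.0 in WT, of which 1 array was within background. Its log2 fold change of 1.29 had an SE of 0.70 (limma adjusted p = 0.376) and rests largely on WT replicate 2: without that array it was 0.38.

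**Figure D2:**
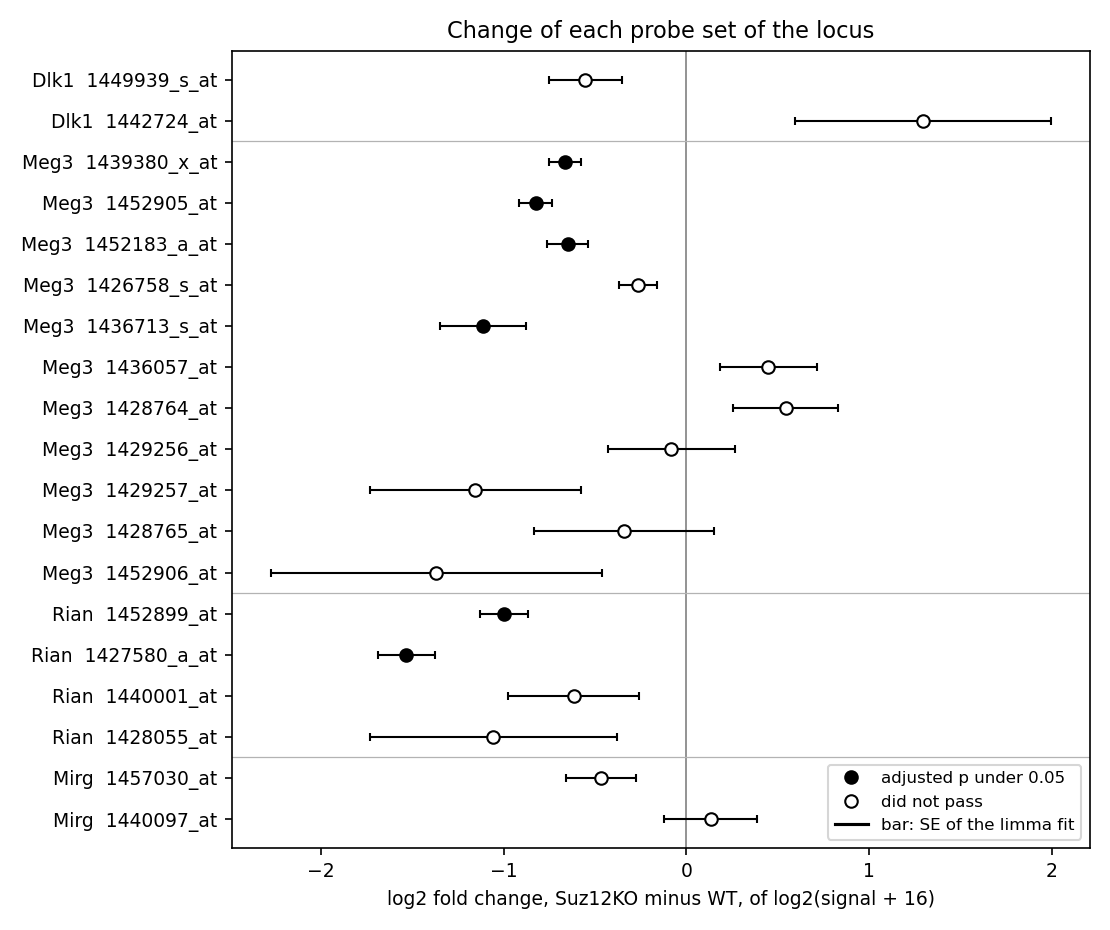
Log2 fold change of each probe set, Suz12KO minus WT, with the SE of the limma fit as a bar (2 arrays a genotype). Filled points passed the test: 4 for Meg3 and 2 for Rian, all below 0, between -0.65 and -1.53.

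The SE of a locus probe set went with its brightness. The fit draws each variance toward that usual at its mean signal, so this link was in part set by the model. Of the 6 locus probe sets with a mean signal of 1000 or more in either genotype, 5 were called lower, and their SE was 0.09 to 0.16. Of the 13 dimmer ones, 1 was called, and their SE was 0.19 to 0.91. Both called Rian probe sets reached 1000 in WT only, with means of 1898 and 1752, against 942 and 597 in Suz12KO. Their place among the bright ones thus depends on the fall itself, and a link of brightness with calls was not tested. Against all tested probe sets, the 4 brightest Meg3 probe sets stood above the 90th percentile of mean level, at 90.4 to 95.2. The brightest Rian probe set stood at percentile 84.2, the brightest Mirg at 76.0 and the brightest Dlk1 at 70.4. Signals of different probe sets depend on their probes, so these levels give no order of abundance among the genes.

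**Figure D3:**
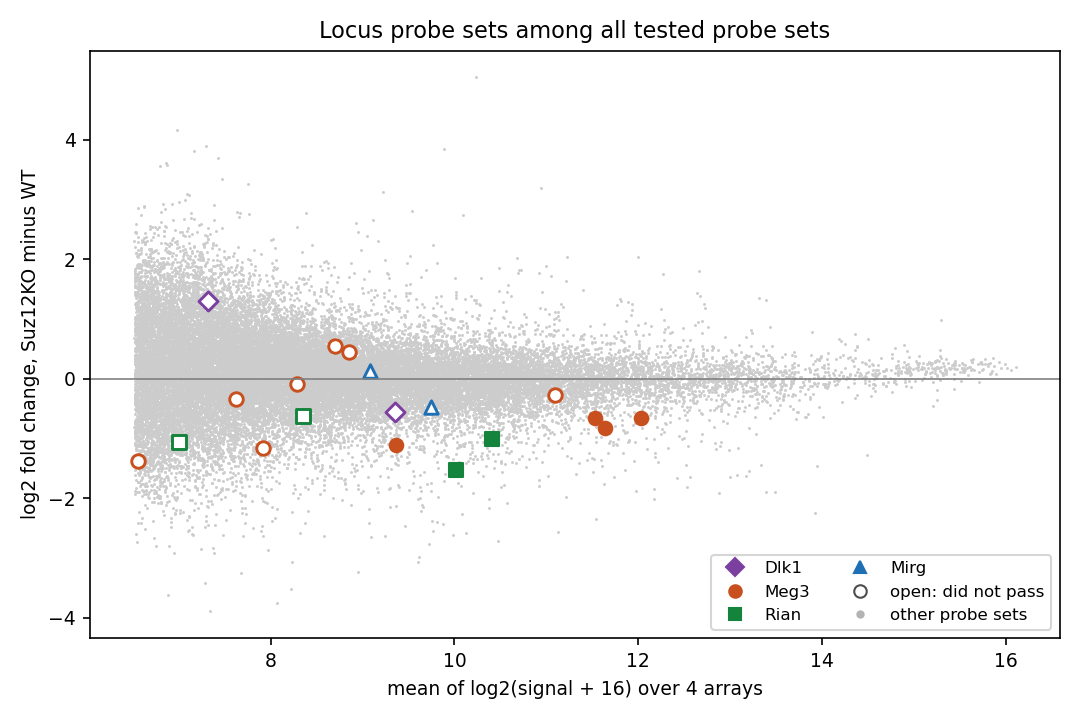
Log2 fold change (Suz12KO minus WT) against the mean of log2(signal + 16) over the 4 arrays, for all 31526 tested probe sets in grey and the 19 locus probe sets as symbols, filled where called. The called Meg3 and Rian points lie below 0, at percentiles 1.43 to 11.2 of all log2 fold changes, and the dim locus points lie within the wide left part of the cloud.

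Genes beside the locus were read from a list of neighbours, each by its brightest probe set. Of 18 on the array 15 were tested, and 0 rose and 0 fell by limma (2 higher and 2 lower at an unadjusted p under 0.05), with 3.15% of all 14752 tested genes called higher and 3.85% lower. Their median log2 fold change was -0.08, against 0.05 for all tested genes. Eml1 (log2 fold change -2.29), Ankrd9 (1.69) and Degs2 (0.52) were left out by the filter on dim signal and have no test. Eml1 read 10.3 and 20.6 in Suz12KO, against 146 and 126 in WT, of which 1 array was above background. Ppp2r5c, a regulatory subunit of protein phosphatase 2A on the Dio3 side, read 3536 and 3861 in Suz12KO, against 3690 and 3701 in WT. Hsp90aa1, an HSP90 chaperone, differed by 0.09 on the log2 scale (limma adjusted p = 0.457), and by -0.068 under quantile normalization and -0.080 after centring. These were the 2 brightest of the neighbours tested.

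Other transcripts inside the interval, chosen for naming with their values known, overlapped between genotypes. Dio3os, an RNA antisense to Dio3, read 428 and 247 in Suz12KO, against 335 and 524 in WT (log2 fold change -0.35, limma adjusted p = 0.671). For 3110009F21Rik the signals were 187 and 64.8 in Suz12KO, within background, against 127 and 200 in WT (-0.46, limma adjusted p = 0.785). A probe set that lists both Mir127 and 6430411K18Rik, a noncoding RNA within the annotated span of Rtl1 whose name RefSeq also gives as a synonym of Rtl1, read 327 and 168 in Suz12KO, against 123 and 294 in WT (0.28, limma adjusted p = 0.841). Whether these changes differ from those of Meg3 and Rian was not tested.

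**Figure D4:**
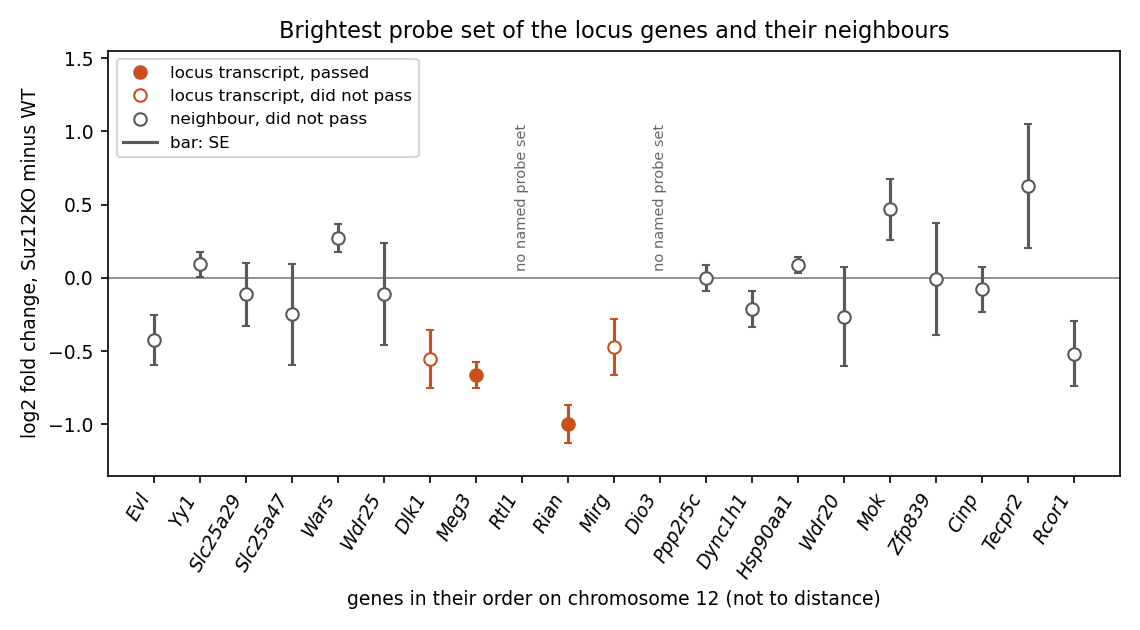
Log2 fold change (Suz12KO minus WT, bar: SE) of the brightest probe set of the locus genes and of the 15 tested neighbours, in the order of the genes on chromosome 12 and not to distance. Meg3 (-0.66) and Rian (-1.0) are filled as called, no neighbour passed, and Rtl1 and Dio3 had no named probe set. The Meg3 point is 1439380_x_at, whose probes can also bind unrelated transcripts. Meg3 probe set 1452905_at, without that suffix, was called lower too (-0.82).

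Factors that keep or remove DNA methylation at imprints rose in part. Of 19 tested genes of this list, 6 rose, 0 fell by limma and 13 did not pass. At an unadjusted p under 0.05, 8 were higher and 1 lower. Among all 14752 tested genes 3.15% were called higher and 3.85% lower. The median log2 fold change was 0.14. Dnmt3l, the cofactor of the de novo DNA methyltransferases, read 10105 and 10718 in Suz12KO, against 3826 and 3895 in WT (log2 fold change 1.43, SE 0.07, limma adjusted p = 6.19e-06). The TET dioxygenases, which oxidise methylated cytosine, rose by 1.20 for Tet1 (SE 0.12) and 1.18 for Tet2 (SE 0.19).

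The other 3 that rose were chosen for naming with their values known. Zfp57, the zinc finger protein that protects methylated imprint control regions, read 2475 and 2709 in Suz12KO, against 1339 and 1321 in WT (0.95, SE 0.11, limma adjusted p = 0.00095). Its corepressor Trim28 rose by 0.47 (SE 0.06). Dppa3, which protects maternal methylation in the early embryo, rose by 0.58 (limma adjusted p = 0.0162), and its call was lost after centring (adjusted p = 0.0833), without WT replicate 1 (0.0620) and without Suz12KO replicate 1 (0.0868).

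Of the imprinted genes at other loci, 41 of the 45 on the array were tested. Of these, 4 fell, 0 rose by limma and 37 did not pass. At an unadjusted p under 0.05, 12 were lower and 4 higher. Their median log2 fold change was -0.19. Of all tested genes 3.85% were called lower and 3.15% higher. Gnas, which encodes a stimulatory G protein subunit, fell by 0.92 on the log2 scale (SE 0.07), with 7130 and 7325 in Suz12KO, against 14288 and 13124 in WT. The growth factor gene Igf2 (-0.64, SE 0.11), Zdbf2 (-0.64, SE 0.14) and the adaptor gene Grb10 (-0.60, SE 0.08), the last chosen for naming with its values known, also fell. Without WT replicate 1 or Suz12KO replicate 1 the call of Zdbf2 was lost (limma adjusted p = 0.197 and 0.108). Whether Meg3 and Rian changed more than these genes was not tested.

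Among 6 tested relatives of the protein-coding members, Ldoc1, a retrotransposon-derived relative of Rtl1, read 560 and 558 in Suz12KO, against 188 and 189 in WT. It rose by 1.49 (SE 0.31, limma adjusted p = 0.0212), a call that was lost without Suz12KO replicate 1 (adjusted p = 0.085) or Suz12KO replicate 2 (adjusted p = 0.0756). The other 5, among them Peg10, which the imprinted list also holds, and Dlk2 (0.12), did not pass. Over all tested genes the shares were 3.15% higher and 3.85% lower.

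The labelled cell type fits its markers in both genotypes: all 10 embryonic stem cell markers were above background on every array. All 10 rose in Suz12KO, with Nanog at 2.04, Klf4 at 2.03 and Fgf4 at 1.81 highest on the log2 scale, and their summed signal was 121673 and 124629 in Suz12KO against 66771 and 66305 in WT. Among all tested genes 3.15% were called higher and 3.85% lower. Some fibroblast markers fell together with Meg3 and Rian. Of 12 tested, 4 fell, 0 rose by limma (0 at an unadjusted p under 0.05) and 8 did not pass. The largest falls on the log2 scale were those of the collagen genes Col1a1 (-2.58), Col3a1 (-2.12) and Col1a2 (-1.80). Of the 8 that did not pass, Lum (1.13), Thy1 (0.41), Prrx1 (0.29) and Fbln2 (0.22) had positive values. Col6a1 (-0.72), Twist1 (-0.70), Mmp2 (-0.51) and Dcn (-0.37) had negative ones. The summed signal of the 14 fibroblast markers was 4352 and 3448 in Suz12KO, against 8680 and 8683 in WT. Without the 4 that fell, Col5a1 among them, it was 2367 and 1870 in Suz12KO, against 2383 and 2151 in WT. These 4 were left out because they fell in these data, so the smaller sum is no separate test of the cell type. Postn, Lum, Dcn and Pdgfrb were within background on every array. In such bulk RNA, fewer cells of a type and less RNA per cell cannot be told apart, and the part of these markers in the falls of Meg3 and Rian was not tested.

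For the other cell types, 0 of 5 tested endoderm markers passed by limma (1 higher at an unadjusted p under 0.05), and Afp, Ttr, Foxa2 and Apoa1 were within background on every array. The brightest tested ones were Dab2 (-0.34, and 0.03 without Suz12KO replicate 2) and Gata6 (-0.05). Sox7 (1.71), Sox17 (0.80) and Gata4 (0.13) had positive values. Sox7 was the one at an unadjusted p under 0.05 (limma adjusted p = 0.188). Both WT arrays were within background for Sox7 and Gata4, and the lower bound of the Sox7 fold was 1.47. The summed endoderm signal was 2392 and 2193 in Suz12KO, against 2054 and 2245 in WT. Of 5 tested skeletal muscle markers, 1 fell, 0 rose by limma (1 higher at an unadjusted p under 0.05) and 4 did not pass (median log2 fold change 0.31). Actc1, the cardiac actin, fell by 2.42, while the other 4 had positive values, Des at 1.4 (limma adjusted p = 0.0528), Myod1 at 1.25, Myh3 at 0.31 and Ckm at 0.23. Summed muscle signal was 1680 and 1983 in Suz12KO, against 2998 and 3193 in WT, and without Actc1 it was 1223 and 1652 in Suz12KO, against 985 and 884 in WT. Myog was within background on every array. Of 4 tested neural markers Nes, the intermediate filament nestin, fell by 1.41, and Tubb3 (-0.23), Pax6 (-0.12) and Map2 (0.15) did not pass. Beside these lists, 3.15% of all tested genes were called higher and 3.85% lower. Summed neural signal was 1676 and 2068 in Suz12KO, against 3268 and 3089 in WT, and without Nes it was 974 and 1359 in Suz12KO, against 1117 and 1415 in WT. Actc1 and Nes were left out because they fell in these data, so the sums without them are no separate test of the cell types.

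**Figure D5:**
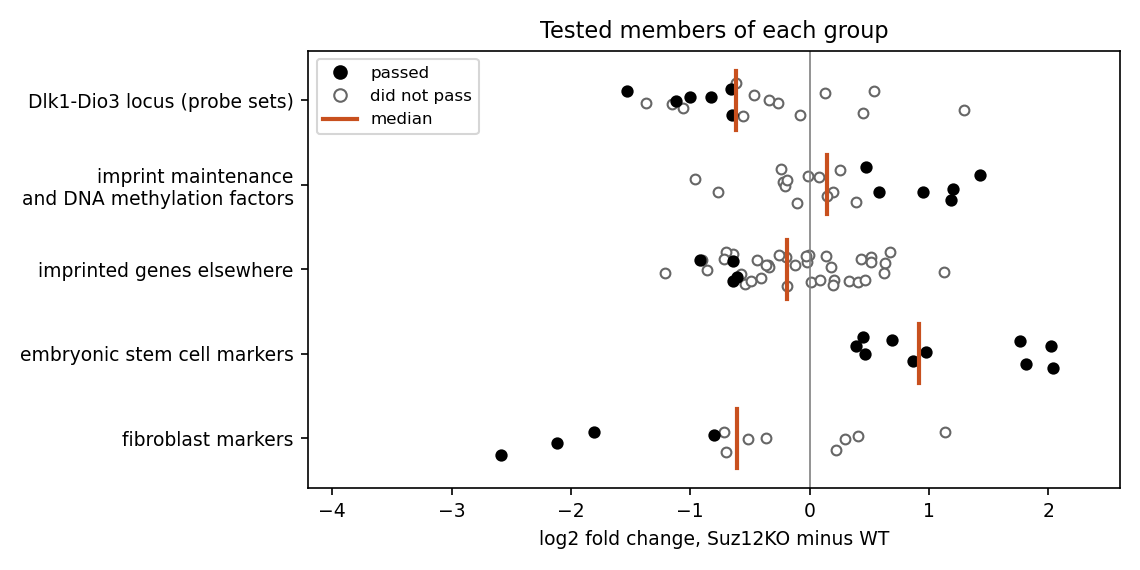
Log2 fold change (Suz12KO minus WT) of the 19 locus probe sets and of the tested genes of each group, with called ones filled and the median as a bar. The medians are -0.62 for the locus, 0.14 for methylation factors, -0.19 for imprinted genes elsewhere, 0.92 for embryonic stem cell markers and -0.61 for fibroblast markers.

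The genes most like each locus gene over the 4 arrays were found by the Euclidean distance of mean-centred log2 values from the brightest probe set of that gene, among 24735 probe sets. For Meg3, by 1439380_x_at, whose probes can also bind unrelated transcripts, they were Ubxn4 (distance 0.03), Tcf4 (0.03) and Itm2c (0.04). For Rian they were Glipr2 (0.04), Nr6a1 (0.04) and Rbms1 (0.05), with log2 fold changes of -0.97 to -1.0. For Mirg they were Srebf2 (0.04), Wac (0.04) and Mtmr4 (0.05), and for Dlk1 Ccdc47 (0.03), Tnfrsf1a (0.04) and Purb (0.05). With 4 arrays such patterns are common: 568 probe sets lay within a distance of 0.25 of Meg3 and 202 of Rian.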

How the data were processed

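Mouse embryonic stem cell RNA was hybridised to 4 Affymetrix arrays, 2 for Suz12KO and 2 for WT, grouped by sample titles. The authors deposited 1 signal per probe set and array, a linear intensity. Every array had a mean of 500.003 without the lowest and highest 2% of values. No source used here names the summarisation software. Gene symbols came from the platform annotation: of 45037 probe sets that are no control, 34945 had 1 symbol, 932 several and 9160 none here. Names of neighbouring genes and sequences came from RefSeq on GRCm38.p6.

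Values were transformed as log2(signal + 16). The lowest 30% of probe sets by mean over all arrays were left out, and 31526 were fitted with limma 3.58.1 in R 4.3.3 (lmFit, eBayes with trend, two-sided, Benjamini-Hochberg over all of them). A listed gene was read by its brightest probe set of 1 symbol. Background was the highest of 27 bacterial spike probe sets per array. Where both arrays of a genotype were at or under it, only a lower bound of the fold was given, the brighter genotype's mean log2(signal + 16) against these spikes. The procedure was tested on simulated data. These were drawn from the fitted mean-variance model, so they could not test that model. Alternatives covered pseudocount, normalization, filter, 1 probe set per gene, variance model, replicate block and leaving out each array.

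Named were all locus probe sets, Suz12, up to 3 largest rises and falls per list (or its 2 brightest genes where none passed) and the 3 nearest genes by pattern. Members, lists and tests were chosen with earlier results of these data known. Same-numbered arrays deviated from their genotype means with a correlation of 0.0020 across probe sets, so the numbers were not taken as pairs. Python 3.11.15 with matplotlib 3.10.9 drew the figures.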

Additional observations from a re-analysis of the deposited data

How the results depend on the processing

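Under 14 alternatives the count of locus probe sets called lower stayed at 5 or 6 and the count called higher at 0, except with 1 probe set per gene symbol, which tests 4 locus probe sets and called 2 lower, and without a mean-variance trend, where limma called 0 (8 of the 19 at an unadjusted p under 0.05). Leaving out 1 array gave 5 to 6. Over all probe sets, 766 higher and 993 lower became 379 and 1624 after centring each array on its median, which moved the median log2 fold change of tested probe sets to -0.12 in place of 0.05; 18.9% of calls were then higher, in place of 43.5%. They were 1340 and 1564 with the replicate block and 0 and 0 without trend (4193 at an unadjusted p under 0.05), and 447 to 722 higher and 644 to 1036 lower without 1 array (447 higher without Suz12KO replicate 1, 473 higher without Suz12KO replicate 2, 644 lower without WT replicate 2). The replicate block changed no call among the locus probe sets. For the 4 gene lists, 7 higher and 4 lower became 0 and 0 without trend (12 at an unadjusted p under 0.05); the lower count was 9 after centring, 9 with the block, 7 with 1 probe set per gene, and 3 to 7 without 1 array, highest without Suz12KO replicate 2. Signs changed for uncalled values only: Meg3 1429256_at (-0.29 to 0.13 without 1 array), Mirg 1440097_at (-0.036 after centring, -0.098 to 0.36 without 1 array), Hsp90aa1 (-0.068 under quantile normalization, -0.080 after centring), Ppp2r5c (0.020 under quantile normalization, -0.063 to 0.063 without 1 array), Dab2 (-0.70 to 0.028 without 1 array) and Gata6 (-0.14 to 0.042 without 1 array). The cause of these changes was not tested. Signal near the spikes limits the dim Meg3, Rian and Dlk1 probe sets.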
